A study of Mus musculus with 4 samples.

Results

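The SLC25 family comprises carrier proteins, most of them in the inner mitochondrial membrane, that exchange nucleotides, phosphate, carboxylates, amino acids and cofactors between the cytosol and the mitochondrial matrix. The members were all rows of the deposited table whose gene symbol is Slc25a followed by a number, 38 of 16442 genes. All 38 symbols were found in the RefSeq gene table for mouse. Values came from ribosome profiling (Ribo-seq), which sequences the stretches of mRNA that ribosomes shield from nuclease, and from RNA of the same lysates kept as input.

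The samples were leukaemia stem cells (LSC) taken from bone marrow of C57BL/6 mice with leukaemia. There were 2 libraries labelled KO and 2 labelled WT. The series gives the KO genotype as Rreb1-KO, a loss of the zinc finger transcription factor RREB1, but for KO replicate 2 the label says Rreb2-KO, so that library was placed with KO by its title. How the allele was made, the leukaemia model, the surface markers used to isolate the cells and the age of the animals are not given in the sources used here. The series calls the replicates biological, but nothing ties a library to an animal, so p-values measure only the spread between these libraries.

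Rreb1 itself went against a simple loss of the transcript. Its input RNA was 6.10 and 6.93 RPKM (reads per kilobase, scaled to library depth) in the KO-labelled libraries, against 3.33 and 3.25 RPKM in the WT libraries. That is higher in both KO-labelled libraries, by 0.81 ± 0.09 (SE) on the log2 scale, with a limma adjusted p of 0.000282. Its footprints were 12.9 and 8.19 RPKM in the KO-labelled libraries, against 14.1 and 12.8 RPKM in the WT libraries (limma adjusted p = 0.672). Counts over a whole gene do not check a deletion of part of it, and the deleted part is not given, so the libraries are called KO-labelled below.

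Footprint reads assigned to genes numbered 364087 and 274183 in the KO-labelled libraries, against 878068 and 656249 in the WT libraries. The input libraries differed in depth by at most 1.12-fold. Footprint values correlated with r = 0.782 between the KO-labelled replicates and 0.940 between the WT replicates, across genes, while RNA values correlated with r = 0.996 between the KO-labelled and 0.997 between the WT replicates. The groups also differed in markers of blood lineages in the input RNA, tested with limma among genes with at least 1 RPKM of RNA in 2 libraries. That test called 53.3% of all its genes, 32.2% risen and 21.1% fallen, and the marker counts stand against these shares. Summed RNA of 7 monocyte and macrophage markers was 1827 and 1771 RPKM in the KO-labelled libraries, against 6105 and 6094 RPKM in the WT libraries, and of the 6 that could be tested 5 fell and 1 rose. The sum over 8 neutrophil markers was 11410 and 11061 RPKM in the KO-labelled libraries, against 18029 and 17203 RPKM in the WT libraries, and 5 of 8 fell while 1 rose. The 8 mast cell, basophil and eosinophil markers present summed to 511 and 494 RPKM in the KO-labelled libraries, against 35.9 and 34.2 RPKM in the WT libraries, with 6 of 6 tested risen and 2 below 1 RPKM in all 4 libraries. The 12 erythroid markers summed to 431 and 524 RPKM in the KO-labelled libraries, against 90.5 and 82.0 RPKM in the WT libraries. All 6 erythroid markers tested rose, and the other 6, among them Klf1, lay below 1 RPKM in all libraries. The 8 stem and progenitor markers summed to 489 and 470 RPKM in the KO-labelled libraries, against 445 and 433 RPKM in the WT libraries, with 4 risen and none fallen. The 7 T and NK cell markers present summed to 435 and 366 RPKM in the KO-labelled libraries, against 17.9 and 18.1 RPKM in the WT libraries, most of it Nkg7, and 4 of 4 tested rose. The other 3, Cd3d, Cd3e and Cd3g, lay below 1 RPKM in all libraries. Megakaryocyte markers summed to 20.8 and 22.2 RPKM in the KO-labelled libraries, against 1.15 and 1.64 RPKM in the WT libraries (1 of 1 tested rose). Itga2b alone gave 19.7 and 19.6 RPKM of the KO-labelled sums. Stromal markers summed to 24.6 and 27.4 RPKM in the KO-labelled libraries, against 1.58 and 1.79 RPKM in the WT libraries (2 of 2 rose). Pdgfrb alone gave 19.0 and 21.0 RPKM of the KO-labelled sums. In each of these lists, 2 of the 4 markers present lay below 1 RPKM in all libraries. The 2 B cell markers present, Cd79a and Cd79b, summed to 28.3 and 26.4 RPKM in the KO-labelled libraries, against 43.0 and 40.5 RPKM in the WT libraries, and Cd79a rose while Cd79b fell. In bulk RNA, a change in the share of a cell type and a change of RNA per cell cannot be told apart. The part of these marker differences in any carrier difference below was not tested.

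Most SLC25 carriers work by alternating access: the protein binds its substrate on one side of the membrane, closes, and opens to the other side, usually trading one molecule for another. ADP/ATP carriers export the ATP made by oxidative phosphorylation, and the phosphate carrier brings in the phosphate that ATP synthase needs. Aspartate/glutamate and oxoglutarate carriers form the malate-aspartate shuttle, which moves reducing power into mitochondria, and the carnitine/acylcarnitine carrier brings in fatty acids for oxidation. The carriers are encoded in the nucleus, made on cytosolic ribosomes and imported, so their footprints report cytosolic translation.

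Promoter-proximal sequence is shown for 4 carriers on which the RNA results turn. Slc25a12 and Slc25a13 encode the paired aspartate/glutamate carriers, whose RNA moved in opposite directions. Slc25a4 had the highest RNA difference among the carriers tested for footprints, and Slc25a20 the lowest. Each sequence is the 250 bases before the annotated gene start in RefSeq's table for GRCm38.p6, 5′ to 3′ along the gene's strand. Coordinates are chr2:71367756-71368005 on the minus strand for Slc25a12, chr6:6217174-6217423 on the minus strand for Slc25a13, chr8:46211063-46211312 on the minus strand for Slc25a4 and chr9:108661886-108662135 on the plus strand for Slc25a20. Capitals mark matches, on either strand, to any of 6 motifs: the NRF1 core CATGCGC, the ETS core CCGGAAG bound by GABP, the GC box GGGCGG, the CCAAT box CCAAT, the E-box CACGTG and the run CCACCCC. No matches overlap in the sequences shown.
Slc25a12: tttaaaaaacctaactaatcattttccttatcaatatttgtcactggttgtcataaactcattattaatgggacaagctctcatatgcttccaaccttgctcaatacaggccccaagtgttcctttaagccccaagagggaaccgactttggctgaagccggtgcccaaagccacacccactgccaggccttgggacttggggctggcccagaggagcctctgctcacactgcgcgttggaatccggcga
Slc25a13: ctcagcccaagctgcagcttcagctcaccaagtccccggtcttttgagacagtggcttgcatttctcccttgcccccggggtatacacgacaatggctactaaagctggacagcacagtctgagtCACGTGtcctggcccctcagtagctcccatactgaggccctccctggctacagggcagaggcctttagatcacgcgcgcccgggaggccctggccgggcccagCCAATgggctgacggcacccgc
Slc25a4: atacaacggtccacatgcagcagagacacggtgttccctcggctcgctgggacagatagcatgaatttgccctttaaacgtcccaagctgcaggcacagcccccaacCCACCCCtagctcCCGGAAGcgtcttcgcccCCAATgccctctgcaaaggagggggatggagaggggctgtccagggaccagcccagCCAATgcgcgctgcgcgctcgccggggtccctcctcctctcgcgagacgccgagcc
Slc25a20: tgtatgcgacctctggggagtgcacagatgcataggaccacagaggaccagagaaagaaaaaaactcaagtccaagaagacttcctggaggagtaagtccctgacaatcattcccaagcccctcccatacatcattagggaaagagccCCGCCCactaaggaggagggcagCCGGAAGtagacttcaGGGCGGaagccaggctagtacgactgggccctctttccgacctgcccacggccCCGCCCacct
Slc25a12 held none of the 6 motifs in this window, and Slc25a13 held 1 E-box and 1 CCAAT box. Slc25a4 held 1 ETS core, 2 CCAAT boxes and 1 CCACCCC run. Slc25a20 held 1 ETS core and 3 GC boxes, 2 of them on the opposite strand. RefSeq's table held 37 promoters of 29 members. The GC box was present in 73.0% of these 37, against 32.7% of all 32851 promoters in the table. The E-box was present in 18.9% of member promoters, against 6.02% of all, the CCAAT box in 45.9%, against 33.8%, and the ETS core in 13.5%, against 6.91%. The run CCACCCC was present in 21.6% of member promoters, against 13.5% of all, and the NRF1 core in none, against 3.24%. Promoters of 1 gene overlap and share matches, and a match describes letters, not binding.

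In the input RNA, carriers moved in both directions between the KO-labelled and the WT cells, while no carrier passed the test in footprints or in translational efficiency. Among the 12 carriers with enough footprints to be tested (at least 20 CPM, counts scaled to library depth, in at least 2 libraries), RNA rose for Slc25a4, Slc25a12 and Slc25a22 and fell for Slc25a3, Slc25a13, Slc25a17, Slc25a20, Slc25a24 and Slc25a39. Slc25a5, Slc25a11 and Slc25a45 did not pass. The test was limma on log2(RPKM + 1) with Benjamini-Hochberg adjustment over all 6384 genes tested and a threshold of 0.05. It called 60.8% of all tested genes in RNA, 33.1% higher and 27.7% lower, so a count of 9 among 12 is not particular to the carriers. Single libraries mattered in both directions. With 1 library left out, Slc25a12 of the risen carriers lost its call in some fits. So did Slc25a3, Slc25a17 and Slc25a39 of the fallen. The groups did not overlap in RNA for 3 carriers higher and 9 lower, against 44.4% and 37.6% of all tested genes, or 82.0% in either direction. The median RNA difference was -0.19 over the 12 carriers and 0.04 over all tested genes. The 12 passed the footprint level in different ways: 9 did so in all 4 libraries, and Slc25a13, Slc25a39 and Slc25a45 did so through the WT libraries alone, so a lower footprint value in KO was built into the selection of those 3. They are also among the 9 carriers lower in RNA without overlap and enter the RNA median. The part of that selection in their RNA values was not tested.

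A wider RNA test took in genes with at least 1 RPKM of RNA in at least 2 libraries, 12194 genes with 34 carriers, none of which entered through 1 group alone. In it 10 carriers rose, 9 fell and 15 did not pass, against 53.3% of all genes tested called, 32.2% risen and 21.1% fallen. The median RNA difference was -0.08 over the 34 carriers and 0.10 over all genes. By role, RNA rose for 3 and fell for 3 of 8 amino acid and acylcarnitine carriers, and rose for 0 and fell for 2 of 7 carriers of nucleotides and cofactors. It rose for 2 and fell for 1 of 6 carriers of phosphate, iron, glycine and glutathione, rose for 1 and fell for 2 of 4 ADP/ATP and ATP-Mg/phosphate carriers, and rose for 1 and fell for 1 of 3 carboxylate carriers. Among the brain uncoupling proteins and their kin it rose for 2 of 3, and among the remaining carriers for 1 of 3. Differences named below for carriers outside the 12 come from this wider test.

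**Figure D1:**
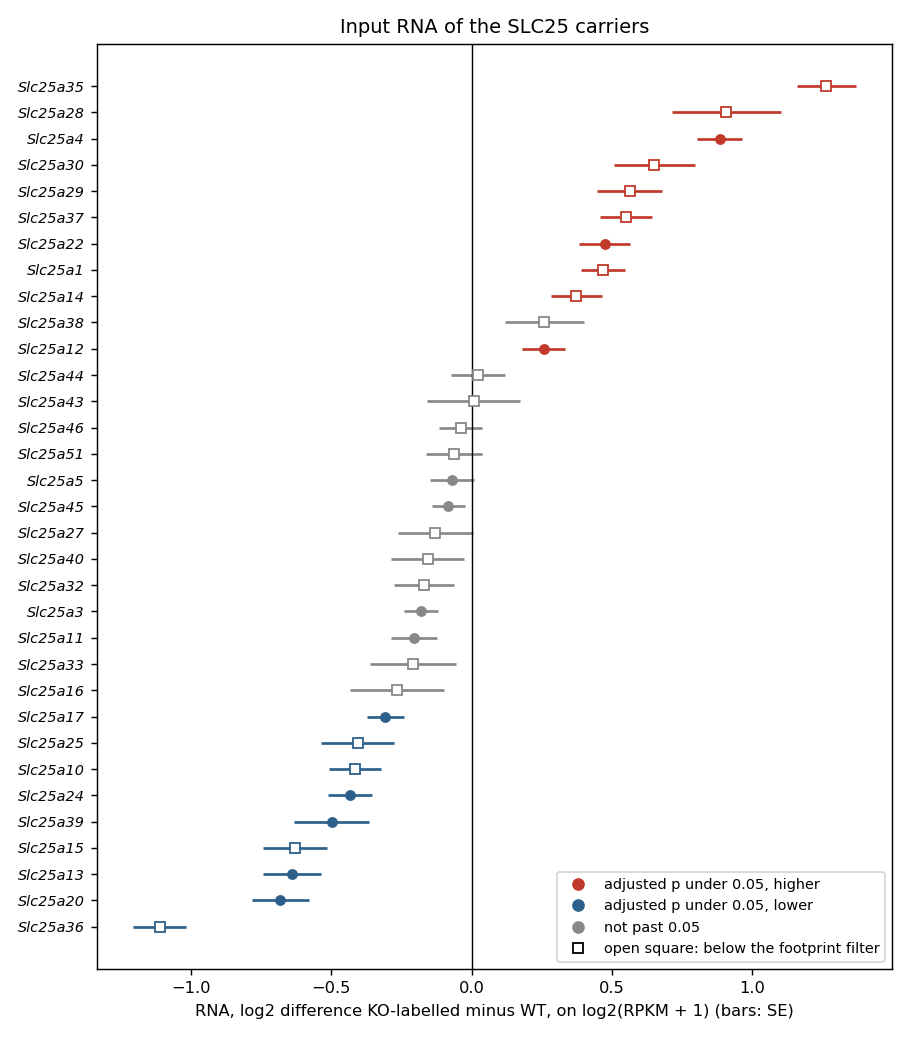
Log2 difference in input RNA, KO-labelled minus WT on log2(RPKM + 1), for carriers in the wider RNA test, with SE bars (2 libraries per group). Red marks the 10 carriers that rose, blue the 9 that fell and grey those shown that did not pass an adjusted p of 0.05; open squares lie below the footprint level. The span runs from Slc25a36 at -1.11 to Slc25a35 at 1.26.

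Of the ADP/ATP carriers, Slc25a4 (ANT1, the isoform that prevails in heart and muscle) rose in RNA. Its RNA was 104 and 91.2 RPKM in the KO-labelled libraries, against 52.1 and 52.7 RPKM in the WT libraries, which is 0.88 ± 0.08 (SE) higher on the log2 scale, with a limma adjusted p of 8.43e-05. Both KO-labelled libraries lay above both WT libraries. Slc25a4 footprints were 114 and 143 RPKM in the KO-labelled libraries (37 and 35 reads), against 72.6 and 95.5 RPKM in the WT libraries (57 and 56 reads). These groups did not overlap either, but the footprint difference of 0.61 ± 0.31 did not pass (limma adjusted p = 0.382). TE, the ratio of footprint to RNA value, was 1.09 and 1.56 in the KO-labelled libraries and 1.39 and 1.80 in the WT libraries, with overlap.

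Slc25a5 (ANT2, the isoform of proliferating cells) was by RNA the most abundant carrier and showed no RNA difference past the threshold. Its RNA was 755 and 704 RPKM in the KO-labelled libraries, against 762 and 769 RPKM in the WT libraries (log2 difference -0.07 ± 0.08, limma adjusted p = 0.449, and 0.0442 without KO replicate 1). The RNA of Slc25a5 was 54.5% and 54.7% of the summed RNA RPKM of all 38 carriers in the KO-labelled libraries, against 56.4% and 56.2% in the WT libraries. The RNA ratio of Slc25a4 to Slc25a5 was 0.138 and 0.130 in the KO-labelled libraries, against 0.0683 and 0.0684 in the WT libraries, a description that follows the rise of Slc25a4.

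Slc25a5 footprints scattered widely within both groups, at 27.7 and 1028 RPKM in the KO-labelled libraries (9 and 252 reads), against 149 and 23.9 RPKM in the WT libraries (117 and 14 reads). On the RPKM + 1 scale the replicates differed 35.9-fold between the KO-labelled libraries, more than for 99.5% of tested genes, and 6.04-fold between the WT libraries, more than for 99.1%. The footprint difference of 1.49 ± 1.90 did not pass (limma adjusted p = 0.719) and became -1.09 without KO replicate 2. The mouse genome carries near-identical processed copies of Slc25a5, between which short reads can be split, and their part in these values was not tested. Slc25a5 held 3.28% and 42.7% of all carrier footprints by RPKM in the KO-labelled libraries, against 12.1% and 2.38% in the WT libraries.

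Slc25a24 and Slc25a25, calcium-regulated carriers that exchange ATP-Mg for phosphate, both fell in RNA. Slc25a24 RNA was 10.7 and 11.2 RPKM in the KO-labelled libraries, against 14.4 and 15.8 RPKM in the WT libraries (log2 difference -0.43 ± 0.08, limma adjusted p = 0.00282). Its footprints ran the other way without passing, at 32.8 and 74.2 RPKM in the KO-labelled libraries, against 39.2 and 43.8 RPKM in the WT libraries. That footprint difference of 0.25 ± 0.47 (limma adjusted p = 0.808) became -0.33 without KO replicate 2. Slc25a25 RNA was 2.12 and 1.60 RPKM in the KO-labelled libraries, against 2.69 and 2.85 RPKM in the WT libraries (log2 difference -0.41 ± 0.13, limma adjusted p = 0.048).

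**Figure D2:**
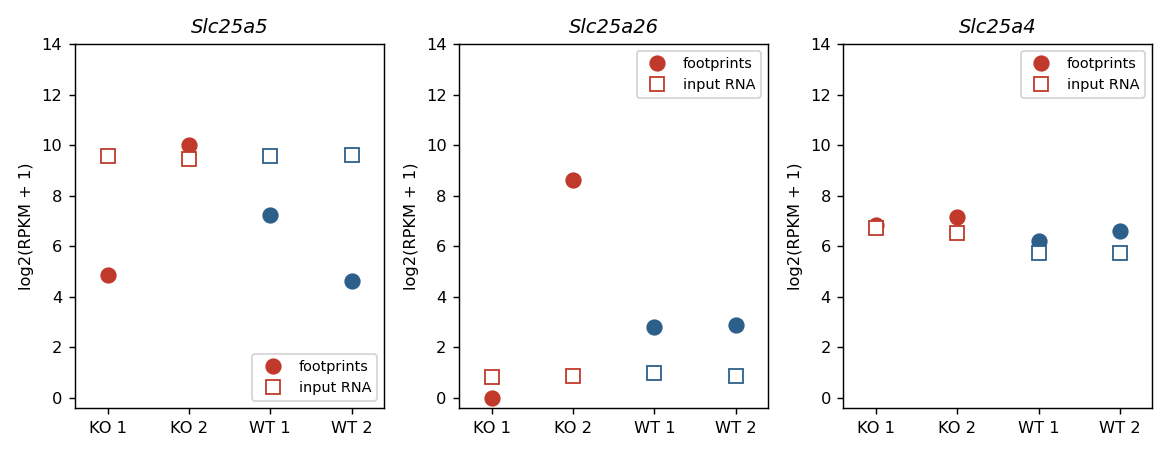
Footprints (filled circles) and input RNA (open squares) as log2(RPKM + 1) in each library for Slc25a5, Slc25a26 and Slc25a4, KO-labelled libraries in red on the left and WT libraries in blue on the right. Footprints of Slc25a5 and Slc25a26 are far higher in KO replicate 2, at 1028 and 395 RPKM, than in KO replicate 1, at 27.7 and 0 RPKM, while the RNA of each stays nearly level.

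Slc25a3, the phosphate carrier, which also brings copper to cytochrome c oxidase, had footprints of 172 and 169 RPKM in the KO-labelled libraries (77 and 57 reads), against 369 and 191 RPKM in the WT libraries (398 and 154 reads). The groups did not overlap, but the 2 WT libraries lay further apart than WT replicate 2 lay from the KO-labelled libraries, and the difference of -0.63 ± 0.40 did not pass (limma adjusted p = 0.466). It was -0.16 without WT replicate 1 and -1.11 without WT replicate 2. Slc25a3 RNA was 46.1 and 46.6 RPKM in the KO-labelled libraries, against 54.3 and 51.2 RPKM in the WT libraries. That difference of -0.18 ± 0.07 passed narrowly (limma adjusted p = 0.0441) and did not in the wider RNA test (adjusted p = 0.0527) nor without WT replicate 1, WT replicate 2 or KO replicate 1 (0.313, 0.134 and 0.0581).

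The mitoferrins, which import iron for haem and iron-sulphur clusters, rose in RNA. Slc25a37 (mitoferrin 1, the erythroid form) had 10.6 and 12 RPKM of RNA in the KO-labelled libraries, against 7.68 and 7.09 RPKM in the WT libraries (log2 difference 0.55 ± 0.09, limma adjusted p = 0.00638). Slc25a28 (mitoferrin 2) had 4.87 and 7.20 RPKM in the KO-labelled libraries, against 3.07 and 2.36 RPKM in the WT libraries (log2 difference 0.91 ± 0.19, limma adjusted p = 0.014). Slc25a37 had 4 and 11 footprint reads in the KO-labelled libraries, against 11 and 6 in the WT libraries, a pooled ratio of 2.12 with a 95% counting interval of 0.986 to 4.51. Slc25a38, the glycine importer of haem synthesis, did not pass in RNA, at 11.1 and 14.8 RPKM in the KO-labelled libraries, against 11 and 10.1 RPKM in the WT libraries (log2 difference 0.26 ± 0.14, limma adjusted p = 0.178). It had 1 footprint read in each KO-labelled library, against 9 and 5 in the WT libraries. Haemoglobin RNA was also higher: Hba-a1 was 197 and 241 RPKM in the KO-labelled libraries, against 40.9 and 34.3 RPKM in the WT libraries. Among enzymes that use what the carriers move, Alas1 fell in RNA, at 106 and 100 RPKM in the KO-labelled libraries, against 140 and 144 RPKM in the WT libraries. That log2 difference was -0.46 ± 0.07 (limma adjusted p = 0.000807). Alas2 rose in the wider test, at 3.46 and 3.81 RPKM in the KO-labelled libraries, against 0.827 and 0.710 RPKM in the WT libraries.

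Slc25a39, a glutathione importer, fell in RNA, at 85.6 and 65.4 RPKM in the KO-labelled libraries, against 103 and 109 RPKM in the WT libraries (log2 difference -0.50 ± 0.12, limma adjusted p = 0.00928, and 0.0539 without WT replicate 2). Its footprints were 15.2 and 6.72 RPKM in the KO-labelled libraries (6 and 2 reads), against 25.2 and 40.7 RPKM in the WT libraries (24 and 29 reads). The footprint difference of -1.56 ± 0.52 had an unadjusted p of 0.032 in limma and did not pass (adjusted p = 0.228). Slc25a39 reached the footprint level through the WT libraries alone, so a lower footprint value in KO was built into its selection. With its high RNA and few footprints, Slc25a39 had a TE of 0.187 and 0.116 in the KO-labelled libraries, against 0.252 and 0.378 in the WT libraries, below 1 throughout. Its paralog Slc25a40 had 0.809 and 1.09 RPKM of RNA in the KO-labelled libraries, against 1.14 and 1.20 RPKM in the WT libraries, and did not pass (limma adjusted p = 0.353).

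Among the carboxylate carriers, Slc25a1 rose and Slc25a10 fell in RNA. Slc25a1, the citrate carrier that supplies cytosolic acetyl-CoA, had 54.6 and 49.3 RPKM in the KO-labelled libraries, against 38.8 and 35.9 RPKM in the WT libraries (log2 difference 0.47 ± 0.08, limma adjusted p = 0.0065). Acly, the enzyme that splits the exported citrate, fell in RNA, at 52.0 and 51.7 RPKM in the KO-labelled libraries, against 73.2 and 81.0 RPKM in the WT libraries (log2 difference -0.56 ± 0.07, limma adjusted p = 0.000483). Its footprints overlapped between groups, at 289 and 133 RPKM in the KO-labelled libraries, against 127 and 179 RPKM in the WT libraries. Slc25a10, which exchanges succinate and malate for phosphate, had 12.3 and 10.5 RPKM of RNA in the KO-labelled libraries, against 15.8 and 15.2 RPKM in the WT libraries (log2 difference -0.42 ± 0.09, limma adjusted p = 0.0151). Slc25a1 and Slc25a10 were below the footprint level. Slc25a10 had 4 and 2 footprint reads in the KO-labelled libraries, against 14 and 15 in the WT libraries, a pooled ratio of 0.497 with a 95% counting interval of 0.169 to 1.22. Slc25a1 footprints were 11.8 and 39.1 RPKM in the KO-labelled libraries (4 and 10 reads), on both sides of 20.8 and 18.0 RPKM in the WT libraries (17 and 11 reads).

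Slc25a11, the oxoglutarate/malate carrier of the malate-aspartate shuttle, had 65.2 and 56.7 RPKM of RNA in the KO-labelled libraries, against 70.0 and 70.6 RPKM in the WT libraries. The groups did not overlap, but the difference of -0.21 ± 0.08 did not pass (limma adjusted p = 0.0585). With all libraries it passed in limma with quantile normalization (adjusted p = 0.0205) and with the coding length trend removed (0.0309). It also passed with blocks of replicate numbers crossed between groups, an alternative chosen after seeing the data (0.0132). It did not pass with blocks of equal replicate numbers (0.0940), with median centring (0.0933) or in the wider RNA test (0.0875). The difference was -0.31 without KO replicate 1. Its footprints were 37.9 and 54.2 RPKM in the KO-labelled libraries (13 and 14 reads), against 60.4 and 80.9 RPKM in the WT libraries (50 reads each). That difference of -0.61 ± 0.35 did not pass either (limma adjusted p = 0.427).

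The aspartate/glutamate carriers Slc25a12 (aralar) and Slc25a13 (citrin) do the same exchange, aralar being the main form in brain and muscle and citrin in liver. Slc25a12 RNA was 45.6 and 40.7 RPKM in the KO-labelled libraries, against 35.2 and 36.6 RPKM in the WT libraries (log2 difference 0.26 ± 0.08, limma adjusted p = 0.0226). The call was lost without WT replicate 1, WT replicate 2 or KO replicate 1, at adjusted p-values of 0.146, 0.0886 and 0.0529. Slc25a13 RNA was 6.58 and 7.03 RPKM in the KO-labelled libraries, against 10.3 and 12.1 RPKM in the WT libraries (log2 difference -0.64 ± 0.10, limma adjusted p = 0.00112). In both genes the groups did not overlap, one rising and the other falling.

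Slc25a12 footprints were 143 and 162 RPKM in the KO-labelled libraries (106 and 90 reads), against 89.7 and 91.5 RPKM in the WT libraries (160 and 122 reads). The footprint difference of 0.74 ± 0.26 had an unadjusted p of 0.0395 and did not pass (limma adjusted p = 0.250). Slc25a13 footprints were 8.13 and 3.60 RPKM in the KO-labelled libraries (6 and 2 reads), against 22.5 and 21.8 RPKM in the WT libraries (40 and 29 reads). Slc25a13 reached the footprint level through the WT libraries alone, so a lower footprint value in KO was built into its selection. Its footprint difference of -1.84 ± 0.47 had an unadjusted p of 0.0123 and did not pass (limma adjusted p = 0.168). It was -2.33 without KO replicate 1, with an adjusted p of 0.0426, and adjusted p-values over all settings tried ran up to 0.810. From footprint RPKM, the ratio of Slc25a12 to Slc25a13 was 17.6 and 44.9 in the KO-labelled libraries, against 3.99 and 4.20 in the WT libraries. In RNA RPKM the same ratio was 6.94 and 5.78 in the KO-labelled libraries, against 3.43 and 3.02 in the WT libraries. The pair was chosen after its values were seen, so the ratios are a description with no test.

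**Figure D3:**
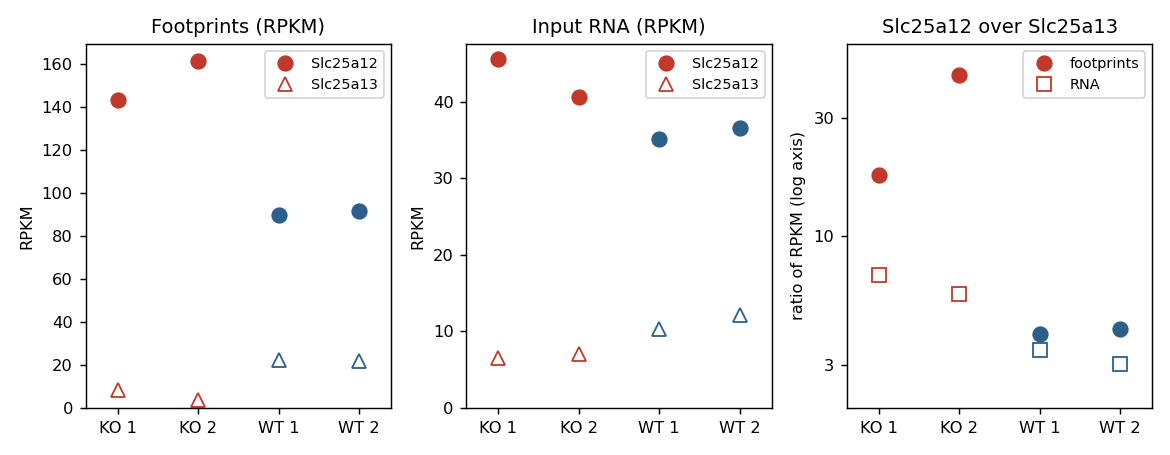
Footprint RPKM, input RNA RPKM and the ratio of Slc25a12 to Slc25a13 (log axis) in each library, KO-labelled libraries in red on the left and WT libraries in blue on the right. Slc25a12 (filled circles) lies higher and Slc25a13 (open triangles) lower in both KO-labelled libraries in either readout, and the footprint ratio is 17.6 and 44.9 in the KO-labelled libraries against 3.99 and 4.20 in the WT libraries. Slc25a13 reached the footprint level through the WT libraries alone, so a lower footprint value in KO was built into its selection.

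Slc25a20, the carnitine/acylcarnitine carrier, fell in RNA, at 8.80 and 7.88 RPKM in the KO-labelled libraries, against 13.0 and 15.0 RPKM in the WT libraries (log2 difference -0.68 ± 0.10, limma adjusted p = 0.000807). Its footprints were 24.3 and 28.3 RPKM in the KO-labelled libraries (8 and 7 reads), against 50.4 and 50.6 RPKM in the WT libraries (40 and 30 reads). The footprint difference of -0.92 ± 0.30 had an unadjusted p of 0.0297 and did not pass (limma adjusted p = 0.220). The enzymes on either side of the carrier fell in RNA with it. Cpt1a, which makes long-chain acylcarnitine at the outer membrane, had 3.67 and 3.08 RPKM of RNA in the KO-labelled libraries, against 9.59 and 9.11 RPKM in the WT libraries (log2 difference -1.25 ± 0.10, limma adjusted p = 4.38e-05). Cpt2, which turns acylcarnitine back into acyl-CoA in the matrix, had 10.7 and 10.5 RPKM in the KO-labelled libraries, against 15.1 and 15.9 RPKM in the WT libraries (log2 difference -0.51 ± 0.07, limma adjusted p = 0.000881). Crat, the acetyltransferase for short acyl groups, had 4.30 and 3.98 RPKM in the KO-labelled libraries, against 13.7 and 14.9 RPKM in the WT libraries (log2 difference -1.57 ± 0.09, limma adjusted p = 7.14e-06). Footprints of Cpt1a were 35.5 and 31.4 RPKM in the KO-labelled libraries, against 221 and 85.9 RPKM in the WT libraries, without passing the test. Those of Crat were also lower without passing, and those of Cpt2 overlapped between groups.

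Slc25a22, a glutamate carrier that moves glutamate with a proton, rose in RNA, at 11.8 and 11.9 RPKM in the KO-labelled libraries, against 7.69 and 8.92 RPKM in the WT libraries (log2 difference 0.47 ± 0.09, limma adjusted p = 0.00318). Its footprints of 45.5 and 30.2 RPKM in the KO-labelled libraries overlapped the 36.7 and 21.0 RPKM of the WT libraries. Slc25a29, a carrier of basic amino acids, rose in RNA at 7.04 and 7.79 RPKM in the KO-labelled libraries, against 5.18 and 4.25 RPKM in the WT libraries (log2 difference 0.56 ± 0.12, limma adjusted p = 0.0121). It had no footprints in the KO-labelled libraries, against 2.48 and 3.32 RPKM in the WT libraries, levels too low to compare.

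Slc25a15, the ornithine/citrulline carrier of the urea cycle, fell in RNA, at 0.993 and 1.05 RPKM in the KO-labelled libraries, against 2.27 and 1.996 RPKM in the WT libraries (log2 difference -0.63 ± 0.11, limma adjusted p = 0.0081). Slc25a45 did not pass in RNA, at 38.9 and 37.7 RPKM in the KO-labelled libraries, against 40.9 and 40.3 RPKM in the WT libraries (limma adjusted p = 0.289). Its footprints were 20.4 and 7.73 RPKM in the KO-labelled libraries (7 and 2 reads), against 26.5 and 37.1 RPKM in the WT libraries (22 and 23 reads), with a difference of -1.25 ± 0.55 (limma adjusted p = 0.329). That difference was -0.60 without KO replicate 2 and -1.89 without KO replicate 1. Slc25a45 reached the footprint level through the WT libraries alone, so a lower footprint value in KO was built into its selection. Like Slc25a39 it had a TE below 1 in all libraries. Slc25a44, which carries branched-chain amino acids, had 9.98 to 11.6 RPKM of RNA over the 4 libraries and did not pass (limma adjusted p = 0.867).

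Of the nucleotide and cofactor carriers, Slc25a36 and Slc25a17 fell in RNA and none rose. Slc25a36, a pyrimidine nucleotide carrier, had the lowest RNA difference of the 34 carriers, at 2.91 and 2.70 RPKM in the KO-labelled libraries, against 7.53 and 6.93 RPKM in the WT libraries (log2 difference -1.11 ± 0.09, limma adjusted p = 0.000767). Its footprints were 16.5 RPKM in KO replicate 1 and 0 in the other 3 libraries, so the 2 readouts were not compared. Slc25a17 lies in the peroxisomal membrane, where it carries cofactors such as coenzyme A. It had 24.5 and 24.1 RPKM of RNA in the KO-labelled libraries, against 29.2 and 31.5 RPKM in the WT libraries (log2 difference -0.31 ± 0.07, limma adjusted p = 0.0073, and 0.0941 without WT replicate 2). Its footprints were 63.0 and 98.3 RPKM in the KO-labelled libraries (23 and 27 reads), against 102 and 116 RPKM in the WT libraries (90 and 76 reads), and did not pass (limma adjusted p = 0.525).

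Slc25a26, which brings S-adenosylmethionine into mitochondria, had 0 and 104 footprint reads in the KO-labelled libraries, against 5 and 4 in the WT libraries. In RPKM that was 0 and 395 in the KO-labelled libraries, against 5.93 and 6.35 in the WT libraries, so 1 library holds nearly all of it. Its RNA was 0.757 and 0.806 RPKM in the KO-labelled libraries, against 0.990 and 0.825 RPKM in the WT libraries, below the RNA level. Slc25a16, a carrier linked to coenzyme A, was the reverse case, with 0 reads in both KO-labelled libraries, against 7 and 8 in the WT libraries. With the KO-labelled group set to a floor of 3 reads in place of 0, its footprints were 2.08-fold lower in KO. That value takes the WT reads as exact, so it is neither an interval nor a lower limit. The RNA of Slc25a16 did not pass (limma adjusted p = 0.236). The NAD carrier Slc25a51, Slc25a32 and Slc25a33 did not pass in RNA either, with limma adjusted p-values of 0.614, 0.235 and 0.298.

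Slc25a35, whose substrate is not stated here, had the highest RNA difference of the 34 carriers, at 5.37 and 6.16 RPKM in the KO-labelled libraries, against 1.86 and 1.77 RPKM in the WT libraries (log2 difference 1.26 ± 0.11, limma adjusted p = 0.00076). Its footprints were 3.05 and 4.05 RPKM in the KO-labelled libraries, against 3.80 and 3.39 RPKM in the WT libraries. Its TE was 0.636 and 0.705 in the KO-labelled libraries, against 1.68 and 1.59 in the WT libraries, at levels of very few reads. Slc25a30, a kin of the uncoupling proteins, rose in RNA at 3.00 and 4.06 RPKM in the KO-labelled libraries, against 1.85 and 1.88 RPKM in the WT libraries (log2 difference 0.65 ± 0.14, limma adjusted p = 0.0151). Slc25a14, the brain mitochondrial carrier, rose at 5.49 and 5.39 RPKM in the KO-labelled libraries, against 3.80 and 4.15 RPKM in the WT libraries (log2 difference 0.37 ± 0.09, limma adjusted p = 0.0206). Slc25a27, Slc25a43 and Slc25a46, the last an outer membrane protein of mitochondrial dynamics, did not pass. Slc25a42, Slc25a47 and Slc25a53, like Slc25a26, lay below the RNA level and were not tested.

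In footprints, 0 of 12 tested carriers passed the limma test in either direction, where 1.05% of all tested genes did, 0.595% higher and 0.454% lower. At an unadjusted p under 0.05 there was 1 carrier higher (Slc25a12) and 3 lower (Slc25a13, Slc25a20 and Slc25a39), against 18.2% of all tested genes in either direction and 12.4% lower. Of these lower carriers, Slc25a13 and Slc25a39 were selected through WT alone. The KO-labelled and WT libraries did not overlap for 2 carriers higher and 7 lower in KO, against 20.5% and 32.1% of all tested genes, or 52.5% in either direction. The lower 7 include the 3 carriers selected through WT alone. The median footprint difference was -0.54 over the 12 carriers and -0.13 over all tested genes. The median over the carriers also includes those 3, whose lower values were built into their selection. Its sign is therefore not a result about the family. Over the carriers it was -0.25 without KO replicate 1, -0.35 without WT replicate 1, -0.39 without WT replicate 2 and -0.70 without KO replicate 2, and 0.25 over the 7 carriers with at least 50 CPM in 2 libraries, so its direction depends on the filter. Single libraries also moved the footprint difference of Slc25a11 (-0.36 without KO replicate 1), Slc25a17 (-0.14 without KO replicate 1), Slc25a22 (0.02 without WT replicate 2) and Slc25a39 (-1.03 without KO replicate 2). Differences ranged from -1.84 for Slc25a13 to 1.49 for Slc25a5. 

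The other 26 carriers were below the footprint level, with at most 17 reads in a library for those with recovered reads other than Slc25a26. Of these 26, 12 had no footprints in at least 1 library, and 3 had footprints in 1 library alone. The mean footprint RPKM was lower in KO for 13 and higher for 13. Summed over all 38 carriers, footprint RPKM were 844 and 2407 in the KO-labelled libraries, against 1227 and 1004 in the WT libraries. Without Slc25a5 and Slc25a26 the sums were 817 and 983 in the KO-labelled libraries, against 1072 and 974 in the WT libraries. Summed RNA was 1384 and 1287 RPKM in the KO-labelled libraries, against 1352 and 1370 RPKM in the WT libraries, so the total RNA of the family overlapped between groups.

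**Figure D4:**
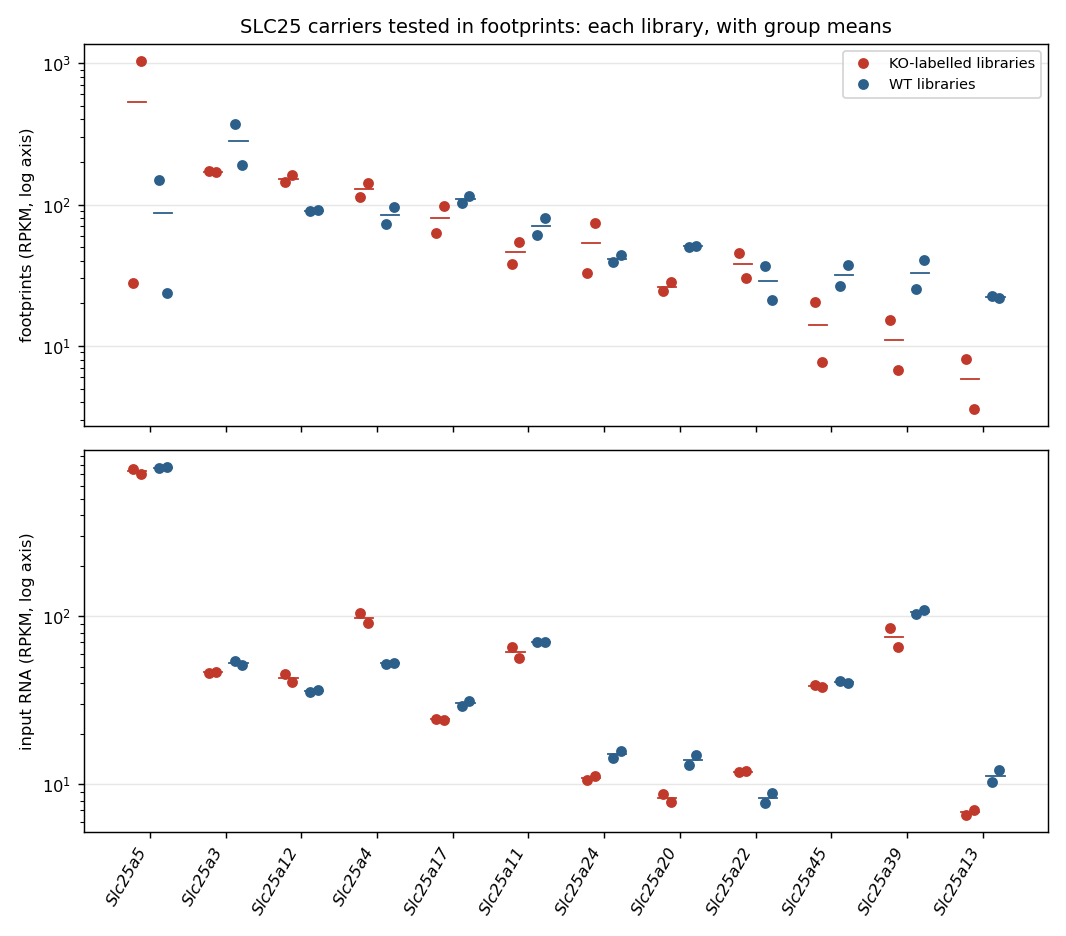
Footprint RPKM (top) and input RNA RPKM (bottom), both on log axes, for the 12 carriers tested in footprints, with each library as a point and the group mean as a line, KO-labelled in red left of WT in blue. RNA points of one group lie close together, while footprint points scatter more, most of all for Slc25a5 at 27.7 and 1028 RPKM in the KO-labelled libraries.

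TE compares the number of footprints with the amount of RNA. No carrier passed in TE, as was true of all 6384 genes tested (0.0%), and 0 of 12 had an unadjusted p under 0.05 in limma, against 13.0% of all genes. The groups did not overlap in TE for 2 carriers higher and 4 lower, against 15.6% and 32.3% of all genes, or 48.0% in either direction. The lower 4 include Slc25a13, Slc25a39 and Slc25a45, which were selected through WT footprints alone. The median TE difference was -0.26 over the 12 carriers and -0.15 over all tested genes. Over the carriers it was -0.060 without KO replicate 1, -0.505 without KO replicate 2 and 0.032 with the trend on coding length removed, so its direction did not hold in every setting. Slc25a13 had a TE of 1.20 and 0.572 in the KO-labelled libraries, against 2.08 and 1.74 in the WT libraries (log2 difference -1.20 ± 0.48, limma adjusted p = 0.389). Slc25a12 had a TE of 3.10 and 3.90 in the KO-labelled libraries, against 2.51 and 2.46 in the WT libraries (log2 difference 0.48 ± 0.32, limma adjusted p = 0.549). TE was above 1 in all libraries for 7 of the 12 carriers. In the authors' deposited table the p-value of TE was under 0.05 for 3 of 38 members, Slc25a35 (0.00175), Slc25a38 (0.0103) and Slc25a29 (0.0238), against 20.9% of all genes. The values of that column match an unadjusted one-sided test, although its header says adjusted.

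Carriers are short proteins: coding lengths of the 12 ran from 894 to 2031 bases with a median of 1043.5, against 1562 over all tested genes. Of the 12, 8 were under 1100 bases, and Slc25a12 at 2031 and Slc25a13 at 2028 bases carry an added calcium-binding domain.

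Genes that act beside the carriers were read from lists of 4 kinds, and none of their tested members passed in footprints or TE. Over all tested genes only 1.05% passed in footprints and 0.0% in TE, so this is not particular to the lists. The RNA counts of the lists stand against 33.1% higher and 27.7% lower over all tested genes. Of 15 tested enzymes that use what the carriers move, 4 rose and 7 fell in RNA, with a median difference of -0.23. The 7 that fell include Alas1, Acly, Cpt1a, Cpt2 and Crat, given above. Among the 4 risen, Fech, which inserts iron into haem, was at 31.4 and 31.0 RPKM in the KO-labelled libraries, against 15.3 RPKM in both WT libraries (log2 difference 0.98 ± 0.07, limma adjusted p = 2.17e-05). Its footprints were 31.7 and 33.3 RPKM in the KO-labelled libraries, against 18.0 and 15.8 RPKM in the WT libraries (limma adjusted p = 0.242). Of 7 tested genes for import of carriers, 5 rose and 1 fell in RNA, with a median difference of 0.31. Timm10, a small chaperone that escorts carriers across the space between the membranes, rose at 51.4 and 47.8 RPKM in the KO-labelled libraries, against 32.5 and 31.0 RPKM in the WT libraries (log2 difference 0.63 ± 0.07, limma adjusted p = 0.000256). Its footprints overlapped between groups, at 112 and 54.0 RPKM in the KO-labelled libraries, against 84.4 and 186 RPKM in the WT libraries. Of 10 tested genes for other solute routes, 0 rose and 4 fell in RNA, with a median of -0.11. Mpc2, a subunit of the pyruvate carrier, fell at 11.5 and 12.3 RPKM in the KO-labelled libraries, against 25.4 and 24.0 RPKM in the WT libraries (log2 difference -0.99 ± 0.07, limma adjusted p = 3.85e-05). Its footprints were 76.5 and 73.9 RPKM in the KO-labelled libraries, against 83.6 and 81.0 RPKM in the WT libraries. That is a log2 difference of only -0.13 ± 0.27 (limma adjusted p = 0.824). Of 3 tested family members under other names, Mtch1 rose in RNA and Ucp2 and Mtch2 did not pass.

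Mtch2, an outer membrane insertase, had footprints of 604 and 58.4 RPKM in the KO-labelled libraries, against 47.5 and 60.2 RPKM in the WT libraries, with RNA of 13.8 to 14.6 RPKM throughout. Mtch1 had footprints of 206 and 30.8 RPKM in the KO-labelled libraries, against 18.3 and 19.3 RPKM in the WT libraries. In both genes KO replicate 1 stood above the other libraries, whereas for Slc25a5 and Slc25a26 it was KO replicate 2.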

How the data were processed

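The authors deposited 1 table, used here for 4 libraries. Per the submitters' processing notes, tools were DESeq2, featureCounts, HISAT2 2.1.0 and CASAVA, with no stated roles. The notes name the human build hg38 for these mouse genes, and no gene annotation. Per the labels' protocols, micrococcal nuclease (10 µg/ml, 30 min) was used on the lysates and fragments of 25 to 40 nucleotides were taken. The deposited footprint values behaved as RPKM plus 1. The deposited TE is the ratio of that value to the RNA value of the input, which also has 1 added. The deposited p-value column matched an unadjusted one-sided test over 16250 genes. These units were read from the values.

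RNA was computed as the footprint value over TE, minus 1. Whole reads were recovered for 10536 of 10536 genes with footprints in at least 2 libraries (tolerance 0.002 reads). Reads of a gene are known up to a whole factor common to its libraries. That factor was corrected where the coding length came out fractional, so some genes may still have too few reads. Input reads were not recovered and their depth is known only relatively. As the table holds RPKM, the test foreseen for that unit was used: limma 3.58.1 in R 4.3.3 (lmFit, eBayes with trend) on log2(RPKM + 1), two-sided, group only, Benjamini-Hochberg adjustment, threshold 0.05, on genes with at least 20 footprint CPM in at least 2 libraries. A fold on this scale understates the change of low genes. RNA and TE were fitted alike. Both steps were tried on simulated data. There the footprint test missed most of the smallest changes that had been set, so a footprint difference that did not pass may still exist. Deviations of same-numbered libraries correlated at 0.0224 in footprints and -0.335 in RNA, so equal numbers showed no positive pairing. In RNA these libraries tended to deviate in opposite directions. The group-only fit leaves that structure out, and its source was not tested. Members and lists were chosen with earlier results of these data known. Members past the threshold or with low unadjusted p, the most abundant and a set of named carriers were described with all values; 1 carrier that did not pass is not reported here. Intervals on reads cover counting error only. Alternatives covered filters, pseudocount, scaling, coding length, the variance trend, voom on recovered reads, blocks and leaving out each library.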

Additional observations from a re-analysis of the deposited data

How the results depend on the processing

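The direction of no carrier reversed in any tested setting where it had been called. In RNA, 143 of 163 single-carrier values kept their side of the threshold, 15 lost it and 5 gained it. Slc25a3 lost its call in 9 settings, Slc25a12 in 4, and Slc25a17 and Slc25a39 without WT replicate 2. Uncalled values changed sign in 11 of 139 cases in TE and 2 of 151 in footprints. In footprints Slc25a13 gained a call without KO replicate 1, giving 1 carrier lower in place of 0. Leaving out 1 library gave 0 to 1094 genes past the threshold in footprints (67 with all libraries; 0 without WT replicate 1 or WT replicate 2, where 389 and 419 genes had an unadjusted p under 0.05 in limma, 332 without KO replicate 1, 1094 without KO replicate 2), 3 to 7 carriers lower in RNA (6 with all; 3 without WT replicate 2), 0 to 698 genes in TE (0 with all; 148 without KO replicate 1, 698 without KO replicate 2) and a TE median of the carriers of -0.505 to -0.060. A fit with 1 library in a group assumes that this library varies as the other group does. The replicate block gave 32 genes in footprints and left the other counts within 1.5 times; with the numbers crossed in RNA, an alternative chosen after seeing the data, 3 carriers were higher and 7 lower, of 4390 genes called. Without a filter there were 0 genes in footprints by limma (1667 at an unadjusted p under 0.05), 6747 in RNA with 9 carriers higher, and an RNA median of -0.069. With at least 50 CPM there were 120 genes in footprints with a median of 0.25 over 7 carriers, 2452 genes in RNA with 3 carriers lower, and 1 gene in TE. A pseudocount of 5 gave 109 genes in footprints and 1 in TE. The filter of 1 RPKM of RNA gave 6497 genes, 10 carriers higher and a median of -0.077. The TE median of the carriers (-0.26) was -0.12 with median centring, -0.049 with quantile normalization and 0.032 with the coding length trend removed; the median of all genes in TE moved from -0.15 to -0.02 and 0.01 under the first 2 of these, so no direction of TE over the family is stated. The causes were not tested, other than fewer genes or libraries entering a fit. Limma-voom on recovered reads gave 62 genes and 0 carriers in footprints. The planned DESeq2 run was meant for a table of counts and was not made. Depth limits the footprint readout: KO replicate 2 has the fewest reads, and 26 carriers were not tested.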
